A study of Mus musculus with 11 samples.

Results

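The genes described here encode enzymes that reduce or oxidise aldehydes, ketones and alcohols, together with the carboxylesterases that cut esters. They were taken as every gene with a probe set naming that gene alone whose symbol begins with Akr1 and a subfamily letter, or with Aldh, Adh, Cbr or Ces and a digit, leaving out Aldh18a1. This gave 45 genes of the 12393 measured, which is 0.363%: 12 aldo-keto reductases, 16 aldehyde dehydrogenases, 4 alcohol dehydrogenases, 4 carbonyl reductases and 9 carboxylesterases. Requiring a digit straight after Akr1 would have left 33 genes and no aldo-keto reductase.

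Messenger RNA was measured on Affymetrix arrays in mouse JB6 cells, a line labelled as skin that is used to study growth without attachment. RT101, a tumorigenic variant of JB6, received no treatment and was sampled as colonies from soft agar (3 arrays) and as an attached monolayer (2 arrays). Parental JB6 cells of clone 41-5A, here called bFGF-JB6, were treated with basic fibroblast growth factor (bFGF) and sampled as colonies (3 arrays) and as monolayer (3 arrays). The bFGF dose in agar was 10 ng/ml and colonies were taken on day 7, while the labels give no dose or time for the bFGF-JB6 monolayer. No harvest day is given for the RT101 monolayer either, so growth state and time of harvest may differ together. The growth protocol gives the same serum-containing medium for all. RT101 and bFGF-JB6 differ in derivation and in growth factor at once, so these cannot be told apart in any comparison between them, and each is represented by cells of a single line. Whether replicate arrays stand for independent cultures is not given, and the p-values therefore cover array-to-array spread that may be technical.

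Reactive aldehydes arise from lipid peroxidation, amine and amino acid breakdown, alcohols and retinoids. Aldehyde dehydrogenases oxidise them to acids, whereas aldo-keto and carbonyl reductases turn aldehydes and ketones, steroids included, into alcohols with NADPH. Alcohol dehydrogenases interconvert alcohols and aldehydes, among them retinol and retinaldehyde. Carboxylesterases of the Ces1 and Ces2 groups hydrolyse ester drugs and lipids and are best known from liver and gut. In mouse many of these genes lie in tandem clusters of close relatives.

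Signals are log2 values, so a difference of 1 is a 2-fold difference in signal. Array medians ran from 5.82 to 5.95, and arrays correlated at 0.989 to 0.998 within a group and at 0.934 to 0.983 between groups. The median of the arrays' lower quartiles was 3.85, and a signal at or below it is called the bottom of the scale here, where folds come out too small. The 3' minus 5' Gapdh signal was 0.35 in bFGF-JB6 colonies replicate 3 and 0.19 in bFGF-JB6 monolayer replicate 1, against -0.08 to -0.01 on the other arrays; leaving out both arrays ended 1 of the 88 gene calls made over the 5 comparisons, that of Aldh4a1 in the difference between colony changes. Of 10 keratinocyte and epithelial markers, which fit the labelled origin, 7 lay at the bottom in all 4 groups, Krt14, Cdh1, Epcam and Trp63 among them. The other 3 were Krt5, Krt8 and Krt10, a keratin of differentiating epidermis. Krt10 averaged 5.24 in RT101 colonies and 5.08 in RT101 monolayer, against 7.35 in bFGF-JB6 colonies and 6.81 in bFGF-JB6 monolayer, and it rose by 0.54 (SE 0.13) in bFGF-JB6 colonies, where Krt1, at the bottom, rose by 0.36 (SE 0.09). The mean of the 10 was 3.86 to 3.99 in RT101 colonies, 3.91 to 3.94 in RT101 monolayer, 4.09 to 4.15 in bFGF-JB6 colonies and 3.94 to 4.06 in bFGF-JB6 monolayer. Of 10 fibroblast markers 2 lay at the bottom. The mean of all was 8.70 to 8.79 in RT101 colonies and 7.26 to 7.30 in RT101 monolayer. It was 8.77 to 8.87 in bFGF-JB6 colonies and 8.40 to 8.51 in bFGF-JB6 monolayer. Between colonies single markers went both ways: 3 were higher and 2 lower in RT101, 50% beside 43.3% of all genes. Between monolayers none was higher and 5 were lower in RT101, 50% beside 44.4% of all genes. Col3a1 averaged 12.38 in RT101 colonies against 10.41 in bFGF-JB6 colonies, and Dcn 5.84 against 9.66. Against monolayer, 5 rose and 2 fell in bFGF-JB6 colonies (70%, beside 29.4%), and 6 rose in RT101 colonies (60%, beside 32.4%). In bulk RNA, fewer cells of a type and less RNA per cell cannot be told apart.

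Of the 45 genes, 13 (28.9%) lay at the bottom of the scale in all 4 groups, against 2374 of all 12393 genes (19.2%). They were Adh4, which acts on retinol and longer alcohols, the retinaldehyde dehydrogenases Aldh1a1 and Aldh1a2, and their relatives Aldh1a7 and Aldh1b1. The rest were the folate enzyme Aldh1l1, the steroid reductases Akr1c6, Akr1c20 and Akr1d1, and the carboxylesterases Ces1c, Ces1e, Ces2a and Ces2e. Aldh1a1 and Ces2e passed a test all the same, and their small differences are differences between signals at the bottom. Another 6 genes stood above the bottom in at least 1 group and passed no test in any of the 5 comparisons: Akr1c21, Akr1e1, Aldh1a3, Aldh8a1, Cbr1 and Ces4a. Ces4a did so in the colony groups alone, averaging 3.87 in RT101 colonies and 3.92 in bFGF-JB6 colonies. The remaining 26 genes passed at least 1 test.

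**Figure D1:**
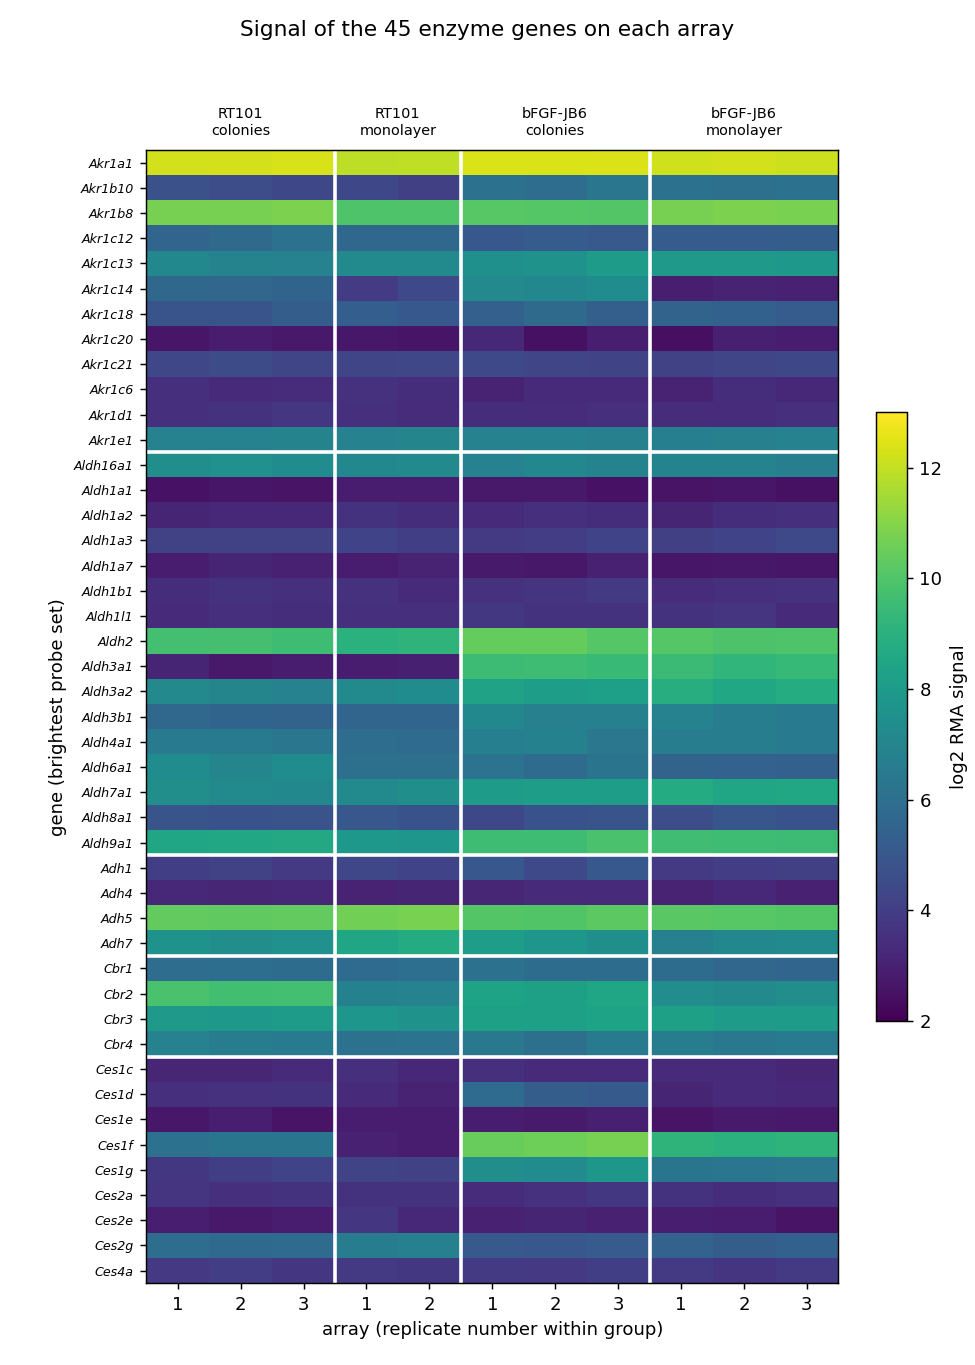
Log2 signal of the 45 genes (rows, grouped by family between white lines) on each of the 11 arrays (columns, grouped by cells and growth state). Aldh3a1 and Ces1f stand out as bright in bFGF-JB6 and dark in RT101 monolayer, and Akr1c14 as dark in bFGF-JB6 monolayer.

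Close relatives limit what a probe set can be said to measure. The 45 genes had 63 probe sets; 33 genes had 1 each and 12 had more, up to 4 for Akr1a1. By the maker's suffixes, 50 probe sets were plain, 8 carried _a (several transcripts of a gene), 4 carried _x (probes that may cross-hybridise) and 1 carried _s (probes shared by related transcripts). The _s probe set is the only measure of Ces1f, so its values may include relatives of Ces1f. Ces1g and the Akr1c genes had plain probe sets only, and the brightest Ces1d probe set was plain, its others being _a and _x. Probe sequences were not compared between relatives. Ces1d, Ces1g and the Akr1c genes are therefore still best read as members of clusters and not as fully separate signals. A probe set annotated to both Akr1c12 and Akr1c13 was left out, as was one annotated to both Ces3a and Ces3b. In the reference gene order, Ces1a, Ces1b, Ces1c, Ces1d, Ces1e, Ces1f, Ces1g, Ces1h and Ces5a follow each other on chromosome 8. On chromosome 13, Akr1c14, Akr1c18, Akr1c13, Akr1c19, Akr1c12, Akr1c6, Akr1c20, Akr1c21 and Akr1e1 do the same.

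Promoter windows are shown for 5 genes whose signal differed between colonies and monolayer: Akr1c14 and Cbr2, which rose in colonies of both kinds of cell, Ces1g, which rose in bFGF-JB6 colonies, and Adh7 and Akr1b8, which moved oppositely in the 2 kinds of cell. Each runs from 250 bases before to 50 bases after a RefSeq start on GRCm38.p6, 5′ to 3′ on the gene's strand. Capitals mark matches on either strand to GCGTG, the core of the xenobiotic response element, or to TATAAA, the TATA box.
Akr1c14, chr13:4059341-4059640, plus strand: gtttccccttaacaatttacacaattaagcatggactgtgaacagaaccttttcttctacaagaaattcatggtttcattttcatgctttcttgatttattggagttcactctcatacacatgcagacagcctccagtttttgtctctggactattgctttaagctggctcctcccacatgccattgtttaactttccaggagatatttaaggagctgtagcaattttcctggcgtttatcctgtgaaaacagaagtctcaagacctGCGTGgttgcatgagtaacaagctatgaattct
Cbr2, chr11:120731972-120732271, minus strand: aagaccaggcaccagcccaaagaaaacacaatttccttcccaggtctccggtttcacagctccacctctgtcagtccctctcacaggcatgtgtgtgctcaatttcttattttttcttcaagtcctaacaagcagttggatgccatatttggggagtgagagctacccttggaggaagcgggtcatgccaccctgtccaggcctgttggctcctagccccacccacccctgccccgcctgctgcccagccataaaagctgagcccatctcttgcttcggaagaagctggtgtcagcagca
Ces1g, chr8:93337160-93337459, minus strand: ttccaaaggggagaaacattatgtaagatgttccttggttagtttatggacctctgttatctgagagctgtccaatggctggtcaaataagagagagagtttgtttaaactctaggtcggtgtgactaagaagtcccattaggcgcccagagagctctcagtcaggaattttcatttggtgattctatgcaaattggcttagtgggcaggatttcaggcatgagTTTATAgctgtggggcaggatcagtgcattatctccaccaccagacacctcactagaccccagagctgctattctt
Adh7, chr3:138217523-138217822, plus strand: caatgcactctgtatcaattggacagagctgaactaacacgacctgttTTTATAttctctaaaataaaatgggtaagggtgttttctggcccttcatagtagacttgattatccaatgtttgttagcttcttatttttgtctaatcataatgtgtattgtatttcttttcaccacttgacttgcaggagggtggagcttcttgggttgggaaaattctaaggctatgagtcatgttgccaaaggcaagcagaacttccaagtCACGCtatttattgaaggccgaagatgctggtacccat
Akr1b8, chr6:34353896-34354195, plus strand: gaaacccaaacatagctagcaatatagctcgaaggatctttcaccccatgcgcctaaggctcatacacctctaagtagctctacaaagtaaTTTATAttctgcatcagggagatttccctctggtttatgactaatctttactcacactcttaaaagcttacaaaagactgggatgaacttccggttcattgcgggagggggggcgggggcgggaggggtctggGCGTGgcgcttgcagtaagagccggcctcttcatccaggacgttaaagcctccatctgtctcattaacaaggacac
GCGTG was found in the windows of Akr1c14, Adh7 and Akr1b8, and in 32.4% of all 32851 windows. TATAAA was found only on the strand opposite to the gene, printed as TTTATA. The matches lay at -26 to -21 from the start of Ces1g, at -159 to -154 from that of Akr1b8 and at -202 to -197 from that of Adh7. Matches to TATAAA on either strand were in 13.6% of all windows. The antioxidant response element TGACNNNGC was in none of the 5 windows and in 12.4% of all. No match overlapped another motif. Of the 45 genes 38 had at least 1 window, 41 windows in all, of which 10 held GCGTG, 6 TATAAA and 2 TGACNNNGC.

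The mRNA of several of these genes differed by a large factor between RT101 colonies and RT101 monolayer. Cbr2 and Ces1f rose most, 7.40-fold and 9.74-fold, and Adh7 fell most, 2.09-fold. Of the 45 genes 10 rose and 4 fell in RT101 colonies against RT101 monolayer at an adjusted p of 0.05, which is 31.1% of them beside 32.4% of all genes (17% higher, 15.4% lower). At 2-fold or more, 4 rose and 1 fell, beside 5.79% of all genes in either direction. The members' median change was 0, against -0.01 for all genes. The share called was near that of all genes.

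In bFGF-JB6 colonies Akr1c14, the steroid-metabolising aldo-keto reductase, rose, as did the carboxylesterases Ces1d, Ces1f and Ces1g; of all 9 carboxylesterases 3 rose and 1, Ces2g, fell. Akr1c14 rose 18.7-fold and Ces1d 4.39-fold, while no gene that fell reached 2-fold. Of the 45 genes 9 rose and 4 fell in bFGF-JB6 colonies against bFGF-JB6 monolayer, which is 28.9% beside 29.4% of all genes (14.1% higher, 15.3% lower). At 2-fold or more 5 rose and none fell, beside 3.49% of all genes. The median change was 0.12, against 0.03 for all genes.

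Akr1c14, Aldh2, Aldh6a1, Cbr2 and Ces1f rose in colonies of both kinds of cell, and Ces2g fell in both. Adh7 fell in RT101 colonies and rose in bFGF-JB6 colonies, and Akr1b8 did the reverse. The difference between the RT101 and the bFGF-JB6 colony change, tested directly, passed for 14 genes (31.1%, beside 27.7% of all genes; 15% higher, 12.7% lower), 7 in each direction. At 2-fold or more, 3 were higher and 5 lower, beside 7.81% of all genes. The 3 were Cbr2, Ces1f and Akr1b8, and the 5 were Akr1c14, Adh7, Ces1d, Ces1g and Adh1.

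**Figure D2:**
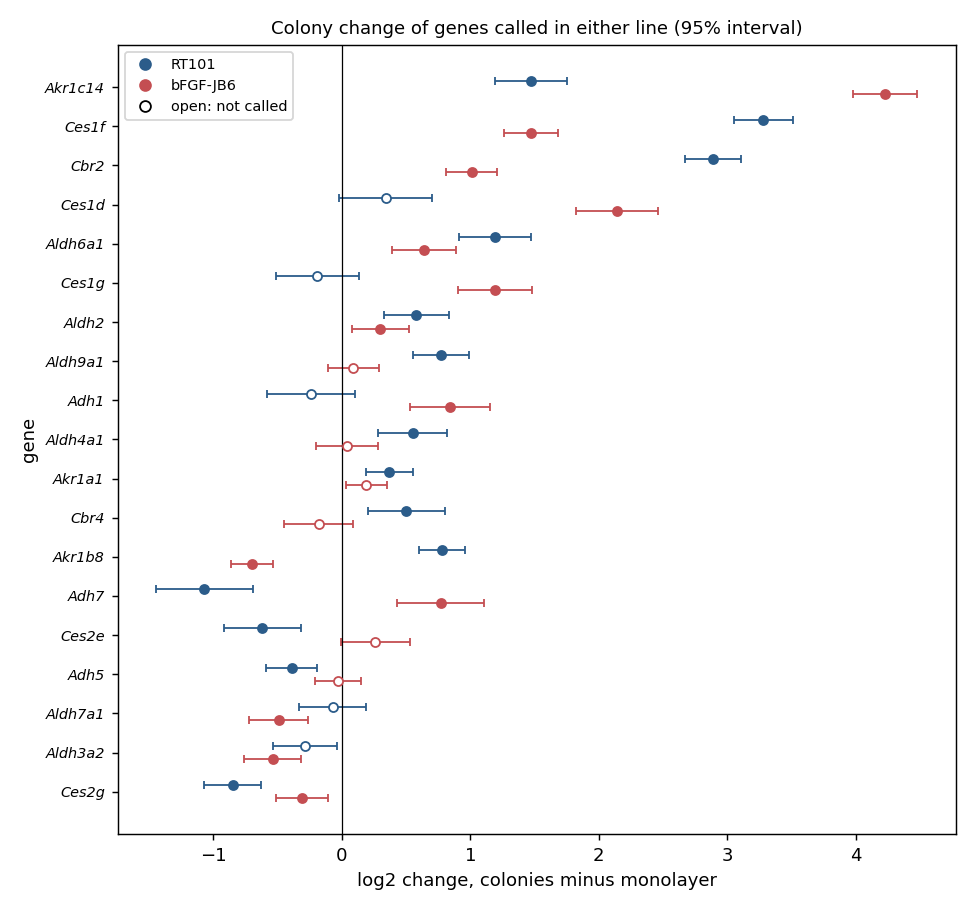
Log2 change of colonies minus monolayer with its 95% interval for the genes that passed in RT101 (blue) or bFGF-JB6 (red); open circles did not pass. Cbr2 and Ces1f lie farther right in RT101, Akr1c14 and Ces1d in bFGF-JB6, and Adh7 and Akr1b8 have their points on opposite sides of 0.

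Of the 16 aldehyde dehydrogenases, 6 were lower and 2 higher in RT101 colonies than in bFGF-JB6 colonies, and 7 were lower and 3 higher in RT101 monolayer than in bFGF-JB6 monolayer. Of the 9 carboxylesterases, 3 were lower and 1 higher in RT101 colonies, and 2 were lower and 2 higher in RT101 monolayer. Aldh3a1, an aldehyde dehydrogenase that makes up much of the protein of the cornea, averaged 2.91 in RT101 colonies and 2.92 in RT101 monolayer, at the bottom, against 9.53 in bFGF-JB6 colonies and 9.37 in bFGF-JB6 monolayer. In RT101 monolayer against bFGF-JB6 monolayer, 9 of the 45 genes were higher and 15 lower, 53.3% beside 44.4% of all genes (23.2% higher, 21.2% lower). At 2-fold or more 3 were higher and 8 lower, beside 12.2% of all genes. In RT101 colonies against bFGF-JB6 colonies, 8 were higher and 15 lower, 51.1% beside 43.3% of all genes (22.7% higher, 20.7% lower). At 2-fold or more 2 were higher and 9 lower, beside 10.1%. The median differences were -0.01 in monolayer and -0.14 in colonies, against 0.05 and 0 for all genes.

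**Figure D3:**
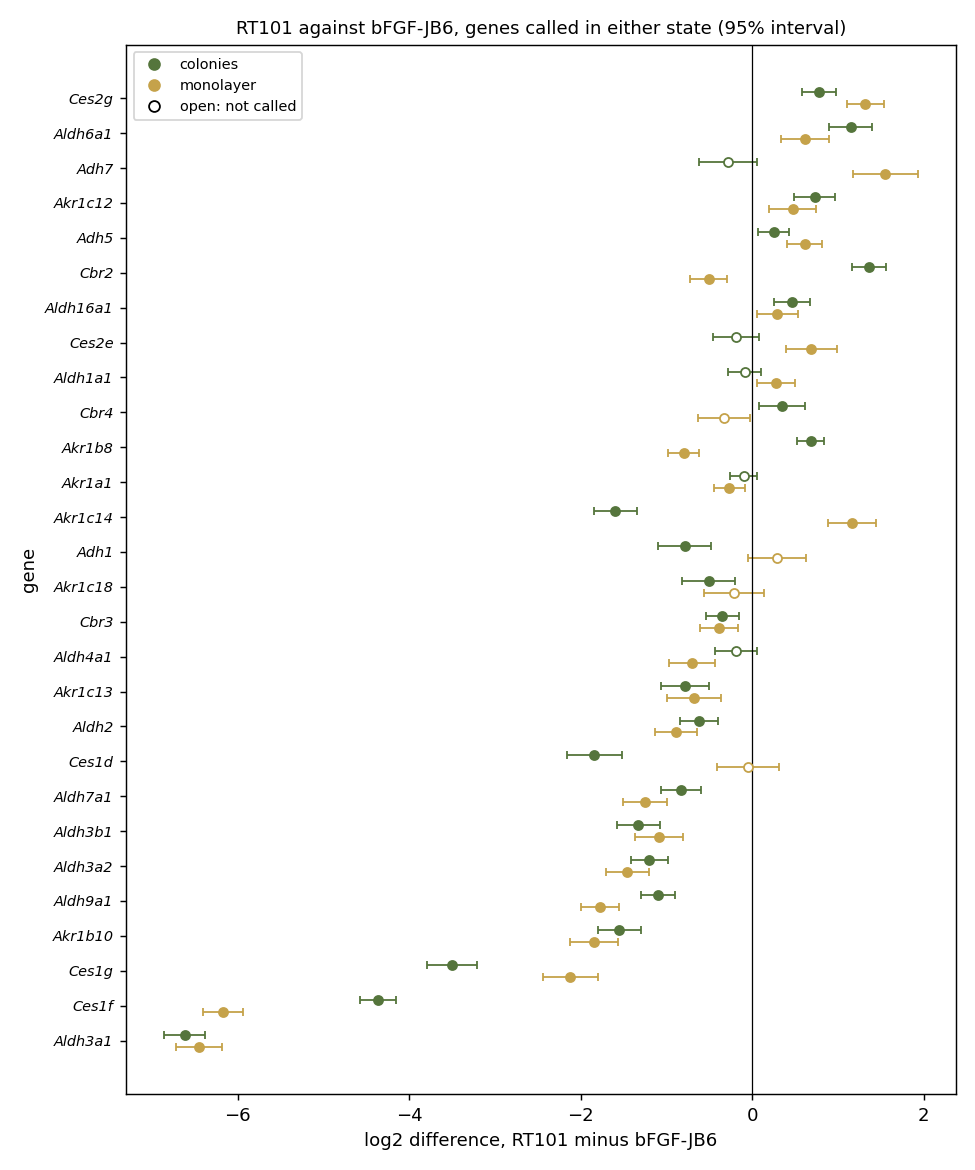
Log2 difference of RT101 minus bFGF-JB6 with its 95% interval, in colonies (green) and monolayer (gold), for the genes that passed in either state; open circles did not pass. Aldh3a1 and Ces1f lie far to the left in both states, and Akr1c14, Cbr2 and Akr1b8 have their points on opposite sides of 0.

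Among the aldo-keto reductases, Akr1c14, known as a 3-alpha-hydroxysteroid dehydrogenase, read 5.68, 5.65 and 5.56 in RT101 colonies, against 3.90 and 4.42 in RT101 monolayer. Its values were 7.18, 7.15 and 7.35 in bFGF-JB6 colonies, against 2.91, 3.07 and 3.02 in bFGF-JB6 monolayer. Every colony array lay above every monolayer array, and the bFGF-JB6 monolayer arrays were all at the bottom of the scale. The rise was 1.47 (SE 0.13, 2.77-fold, adjusted p = 1.41e-06) in RT101 and 4.23 (SE 0.12, 18.7-fold, adjusted p = 3.67e-11) in bFGF-JB6. RT101 was 2.24-fold higher than bFGF-JB6 in monolayer and 3.03-fold lower in colonies.

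The Akr1c14 pattern was not seen across its cluster. Akr1c18, which inactivates progesterone, and Akr1c12 and Akr1c13 passed in neither colony comparison, with changes of -0.26 to 0.16 in RT101 and -0.16 to 0.12 in bFGF-JB6. Akr1c13 differed between RT101 and bFGF-JB6 by -0.78 in colonies (SE 0.13) and by -0.68 in monolayer (SE 0.14), and Akr1c12 by 0.73 (SE 0.11) and 0.47 (SE 0.13), lower and higher in RT101. The probe set annotated to both genes read 7.95, 7.81 and 7.89 in RT101 colonies, 7.75 and 7.80 in RT101 monolayer, 8.21, 8.27 and 8.51 in bFGF-JB6 colonies and 8.28, 8.37 and 8.35 in bFGF-JB6 monolayer. Akr1c18 was lower in RT101 colonies than in bFGF-JB6 colonies (-0.51, SE 0.14), a call lost without bFGF-JB6 colonies replicate 2 (adjusted p = 0.0584). Akr1c21 and Akr1e1 passed no test, and Akr1c6 and Akr1c20 were at the bottom.

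Akr1b8, an aldose reductase relative first described in mouse fibroblasts as a protein regulated by fibroblast growth factor, read 10.75, 10.74 and 10.82 in RT101 colonies, against 9.99 and 9.99 in RT101 monolayer. In bFGF-JB6 it was 10.14, 10.08 and 10.04 in colonies, against 10.75, 10.83 and 10.79 in monolayer. The groups did not overlap within either kind of cell, and the direction was opposite. RT101 colonies were 1.72-fold higher than monolayer (SE 0.08 on the log2 scale, adjusted p = 7.29e-06) and bFGF-JB6 colonies 1.63-fold lower (SE 0.07, adjusted p = 9.23e-06). The difference between the changes was 1.48 (SE 0.11, adjusted p = 4.13e-07).

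Its chromosome 6 neighbour Akr1b10, named like the human retinal and farnesal reductase, differed by kind of cell instead. It read 4.74, 4.60 and 4.39 in RT101 colonies, against 6.10, 5.95 and 6.31 in bFGF-JB6 colonies, and 4.38 and 4.10 in RT101 monolayer, against 6.10, 6.07 and 6.11 in bFGF-JB6 monolayer. The difference of RT101 from bFGF-JB6 was -1.55 in colonies (SE 0.12, 2.92-fold lower) and -1.85 in monolayer (SE 0.13, 3.62-fold lower), and neither colony change passed. Its second probe set lay at the bottom in all 4 groups, and its small colony changes there passed in opposite directions.

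Akr1a1, the general aldehyde reductase that also serves vitamin C synthesis in mice, rose 1.29-fold in RT101 colonies (0.37, SE 0.08, adjusted p = 0.0031) and its change of 0.19 in bFGF-JB6 colonies did not pass (adjusted p = 0.0624). Its 4 probe sets include _x ones, which may cross-hybridise. Adjusted over all probe sets, all 4 were higher in RT101 colonies, by 0.37 to 0.65. In bFGF-JB6 colonies 3 of the 4 were higher, the 4 spanning 0.19 to 0.42. In monolayer the RT101 minus bFGF-JB6 difference was -0.27 (SE 0.08). That call was lost without RT101 monolayer replicate 1 or replicate 2 (adjusted p 0.0606 to 0.0704) and with median centring (adjusted p = 0.053). Adjusted over all probe sets, all 4 Akr1a1 probe sets were lower in RT101 monolayer than in bFGF-JB6 monolayer, spanning -0.53 to -0.27. Between colonies 2 of the 4 were lower in RT101, the 4 spanning -0.30 to -0.10. Akr1d1, a steroid 5-beta-reductase, stayed at the bottom on both its probe sets. Of these 1 was lower in RT101 colonies than in bFGF-JB6 colonies (-0.31).

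Of the carbonyl reductases, Cbr2, a tetrameric reductase best known from lung, read 9.83, 9.68 and 9.71 in RT101 colonies, against 6.82 and 6.88 in RT101 monolayer. In bFGF-JB6 it read 8.36, 8.26 and 8.50 in colonies, against 7.40, 7.24 and 7.44 in monolayer. All colony arrays lay above all monolayer arrays, and RT101 held both the highest and the lowest of the 4 groups. The rise was 2.89 in RT101 (SE 0.10, 7.40-fold, adjusted p = 2.59e-10) and 1.01 in bFGF-JB6 (SE 0.09, 2.02-fold, adjusted p = 1.95e-06). The difference between them was 1.87 (SE 0.14, adjusted p = 3.02e-07). RT101 was 2.57-fold above bFGF-JB6 in colonies and 1.43-fold below it in monolayer.

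The other carbonyl reductases moved little. Cbr4, a reductase subunit of mitochondrial fatty acid synthesis, rose by 0.50 in RT101 colonies (SE 0.14, adjusted p = 0.0121), a call that was lost without RT101 monolayer replicate 1, RT101 monolayer replicate 2 or RT101 colonies replicate 1 (adjusted p 0.0527 to 0.0792). RT101 colonies were 0.35 above bFGF-JB6 colonies (SE 0.12), with overlapping groups. That call was lost without bFGF-JB6 colonies replicate 2, RT101 colonies replicate 1 or RT101 colonies replicate 2 (adjusted p 0.0685 to 0.17). It was also lost with same-numbered colony arrays paired (adjusted p = 0.0509) and when only the colony groups were fitted (adjusted p = 0.0741). Cbr3, a cytosolic reductase of quinones and ketones, differed by -0.35 between RT101 and bFGF-JB6 colonies (SE 0.09) and by -0.39 between the monolayers (SE 0.10), lower in RT101, the monolayer call being lost without RT101 monolayer replicate 2 (adjusted p = 0.058). Its chromosome 16 neighbour Cbr1 passed no test.

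Adh7, the class IV enzyme that oxidises retinol in epithelia, was the alcohol dehydrogenase that differed most. It read 7.59, 7.45 and 7.55 in RT101 colonies, against 8.45 and 8.75 in RT101 monolayer, and 8.17, 7.80 and 7.46 in bFGF-JB6 colonies, against 6.80, 7.14 and 7.20 in bFGF-JB6 monolayer. It fell by 1.07 in RT101 colonies (SE 0.18, 2.09-fold, adjusted p = 0.000339) and rose by 0.77 in bFGF-JB6 colonies (SE 0.16, 1.70-fold, adjusted p = 0.00225). The second probe set showed the same directions: 6.46, 6.64 and 6.80 in RT101 colonies, against 8.07 and 8.07 in RT101 monolayer, and 7.01, 6.80 and 6.85 in bFGF-JB6 colonies, against 5.69, 5.49 and 5.71 in bFGF-JB6 monolayer. The difference between the changes was -1.83 (SE 0.24) on the first and -2.69 on the second probe set. In monolayer RT101 was 2.93-fold higher (adjusted p = 6.55e-06), and in colonies the difference of -0.28 did not pass (95% interval ± 0.34).

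Adh1, the class I ethanol and retinol dehydrogenase beside Adh7 on chromosome 3, read 4.03, 4.16 and 3.88 in RT101 colonies, against 4.33 and 4.20 in RT101 monolayer. In bFGF-JB6 it read 5.00, 4.42 and 5.02 in colonies, against 3.87, 3.98 and 4.07 in monolayer. The bFGF-JB6 colonies stood above every other array, by 0.84 over their monolayer (SE 0.14, adjusted p = 0.0005), and the RT101 change of -0.24 did not pass. RT101 colonies were below bFGF-JB6 colonies (-0.79, SE 0.14). Adh5, the class III enzyme that clears formaldehyde with glutathione, fell by 0.39 in RT101 colonies (SE 0.09, adjusted p = 0.00505), a call lost without RT101 monolayer replicate 2 (adjusted p = 0.0663). It was higher in RT101 than in bFGF-JB6 by 0.25 in colonies (SE 0.08) and 0.61 in monolayer (SE 0.09). The colony difference was lost when any of 5 colony arrays was left out (adjusted p 0.0547 to 0.0905). It was also lost with cyclic loess scaling (adjusted p = 0.115).

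The aldehyde dehydrogenases rose in RT101 colonies in 4 of 16 cases and fell in none, with 3 lower at an unadjusted p of 0.05 in limma's test, while in bFGF-JB6 colonies 2 rose and 2 fell. That is 25% of them in each comparison, beside 32.4% and 29.4% of all genes. Aldh6a1, which handles semialdehydes of valine breakdown, read 7.37, 7.02 and 7.34 in RT101 colonies, against 6.07 and 6.05 in RT101 monolayer. In bFGF-JB6 it read 6.20, 5.85 and 6.22 in colonies, against 5.50, 5.45 and 5.39 in monolayer. Colonies lay above monolayer in both, by 1.19 in RT101 (SE 0.13, 2.27-fold) and 0.64 in bFGF-JB6 (SE 0.11, 1.56-fold). RT101 was also higher than bFGF-JB6, 2.23-fold in colonies and 1.53-fold in monolayer.

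Aldh9a1, which makes the carnitine precursor gamma-butyrobetaine and oxidises aminobutyraldehyde, read 8.49, 8.60 and 8.66 in RT101 colonies, against 7.85 and 7.77 in RT101 monolayer. In bFGF-JB6 it read 9.59, 9.58 and 9.86 in colonies, against 9.61, 9.59 and 9.56 in monolayer, a change that did not pass. RT101 colonies rose by 0.77 (SE 0.10, adjusted p = 5.27e-05), yet RT101 stayed below bFGF-JB6, 2.14-fold in colonies and 3.43-fold in monolayer. On the second probe set the RT101 minus bFGF-JB6 difference was -1.36 in colonies and -1.67 in monolayer, and RT101 colonies rose by 0.55. This probe set read 8.79, 8.68 and 8.57 in bFGF-JB6 colonies, against 8.50, 8.36 and 8.47 in bFGF-JB6 monolayer. That change of 0.24 did not pass (adjusted p = 0.0664 in limma's test over all probe sets). The difference between the colony changes was 0.68 on the first probe set and 0.31 on the second, where it did not pass (adjusted p = 0.115 in limma's test over all probe sets).

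Aldh2, the mitochondrial acetaldehyde dehydrogenase, rose on its brightest probe set by 0.58 in RT101 colonies (SE 0.11, adjusted p = 0.00136) and by 0.30 in bFGF-JB6 colonies (SE 0.10, adjusted p = 0.0394). The bFGF-JB6 groups touched at 10.08, and that call was lost on leaving out any of 6 arrays (adjusted p 0.0505 to 0.13). These were bFGF-JB6 colonies replicate 1 or 2, bFGF-JB6 monolayer replicate 2 or 3 and RT101 colonies replicate 1 or 2. The call was also lost when all probe sets were adjusted together and when only the bFGF-JB6 groups were fitted (adjusted p = 0.0503 and 0.0856). The other 2 probe sets passed no test, with group means of 5.19 to 5.66, and both were highest in bFGF-JB6 colonies replicate 3, the array with the raised 3' Gapdh signal, where 1 of them read 6.19. Aldh4a1, of proline breakdown, rose by 0.55 in RT101 colonies (SE 0.13, adjusted p = 0.00364), and its bFGF-JB6 change did not pass. It was lower in RT101 monolayer than in bFGF-JB6 monolayer (-0.70, SE 0.13). Aldh2 was also lower in RT101 on its brightest probe set, -0.62 in colonies (SE 0.10) and -0.89 in monolayer (SE 0.11), and the dim probe sets did not pass there.

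Aldh3a1 was the member with the widest gap between the cells. It read 3.16, 2.74 and 2.83 in RT101 colonies, against 9.55, 9.58 and 9.46 in bFGF-JB6 colonies, and 2.87 and 2.97 in RT101 monolayer, against 9.50, 9.24 and 9.37 in bFGF-JB6 monolayer. All RT101 arrays lay at the bottom, so the fitted folds of 98.5 in colonies (difference -6.62, SE 0.11, adjusted p = 2.87e-14) and 87.5 in monolayer (-6.45, SE 0.12, adjusted p = 1.51e-13) are between a clear signal and one at the bottom of the scale. Neither colony change passed, at -0.01 in RT101 (95% interval ± 0.27) and 0.16 in bFGF-JB6 (± 0.24).

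Its chromosome 11 neighbour Aldh3a2, the fatty aldehyde dehydrogenase, was lower in RT101 too but stayed well above the bottom. It read 7.16, 6.99 and 6.87 in RT101 colonies, against 8.32, 8.12 and 8.19 in bFGF-JB6 colonies, and 7.24 and 7.35 in RT101 monolayer, against 8.85, 8.58 and 8.83 in bFGF-JB6 monolayer. The differences were -1.20 in colonies (SE 0.10, 2.30-fold) and -1.46 in monolayer (SE 0.12, 2.75-fold). Aldh3a2 fell by 0.54 in bFGF-JB6 colonies (SE 0.10, adjusted p = 0.00121). Aldh3b1, another relative that acts on lipid aldehydes, was 2.51-fold lower in RT101 colonies and 2.13-fold lower in RT101 monolayer. Aldh7a1, of lysine breakdown, had RT101 minus bFGF-JB6 differences of -0.83 in colonies and -1.25 in monolayer, and it fell by 0.49 in bFGF-JB6 colonies (SE 0.11) on 1 of 3 probe sets; the other 2 lay near or below the bottom in all groups.

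The Aldh1a genes, the retinaldehyde dehydrogenases among them, read at or near the bottom of the scale. Aldh1a1, Aldh1a2 and Aldh1a7 were at the bottom in all groups, and Aldh1a3 read 3.86 to 4.42 over the 11 arrays and passed no test on any of its 3 probe sets. The call of Aldh1a1 in RT101 monolayer (0.28 higher, SE 0.10) was lost on leaving out any of 5 arrays (adjusted p 0.0534 to 0.161). It was also lost with the title numbers as a replicate block (adjusted p = 0.0813) and with cyclic loess scaling (adjusted p = 0.0867). Aldh16a1, a member without a usual active site, was higher in RT101 by 0.46 in colonies (SE 0.10) and by 0.29 in monolayer (SE 0.11). The monolayer call was lost on leaving out any of 7 arrays (adjusted p 0.053 to 0.192) and with either replicate block (adjusted p 0.052 and 0.0752). That call was also lost with cyclic loess scaling (adjusted p = 0.0901) and when all probe sets were adjusted together (adjusted p = 0.0552).

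On the brightest probe sets, the largest differences between RT101 and bFGF-JB6 after that of Aldh3a1 were in the carboxylesterases Ces1f and Ces1g; a Ces1d probe set that is dimmer over all arrays differed by -4.63 in colonies. Ces1f read 6.12, 6.28 and 6.28 in RT101 colonies, against 3.01 and 2.87 in RT101 monolayer. In bFGF-JB6 it read 10.44, 10.57 and 10.74 in colonies, against 9.16, 9.01 and 9.17 in monolayer. No group overlapped another, and RT101 monolayer was at the bottom. Ces1f rose by 3.28 in RT101 colonies (SE 0.11, 9.74-fold, adjusted p = 1.28e-10) and by 1.47 in bFGF-JB6 colonies (SE 0.10, 2.77-fold, adjusted p = 1.05e-07). RT101 differed from bFGF-JB6 by -4.36 in colonies (20.5-fold lower) and by -6.17 in monolayer (fitted fold 72.0, ending at the bottom).

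Ces1g, a hepatic lipid hydrolase next to Ces1f, read 3.78, 4.05 and 4.20 in RT101 colonies, against 4.24 and 4.15 in RT101 monolayer. In bFGF-JB6 it read 7.42, 7.29 and 7.81 in colonies, against 6.28, 6.31 and 6.37 in monolayer. It rose in bFGF-JB6 colonies by 1.19 (SE 0.13, 2.28-fold, adjusted p = 1.41e-05), and the RT101 change of -0.19 did not pass (95% interval ± 0.32, signals close to the bottom). RT101 was 11.3-fold lower in colonies and 4.36-fold lower in monolayer.

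Ces1d, a lipid droplet and microsomal triacylglycerol hydrolase, stood above the bottom only in bFGF-JB6 colonies. Its brightest probe set over all arrays read 3.53, 3.55 and 3.60 in RT101 colonies, against 3.32 and 3.11 in RT101 monolayer, and 5.83, 5.25 and 5.13 in bFGF-JB6 colonies, against 3.16, 3.37 and 3.27 in bFGF-JB6 monolayer. The rise in bFGF-JB6 colonies was 2.14 (SE 0.15, 4.39-fold, adjusted p = 1.66e-07), and all other groups lay at the bottom. A second probe set read 7.21, 7.32 and 7.48 in bFGF-JB6 colonies, against 2.49, 2.49 and 2.38 in bFGF-JB6 monolayer, a rise of 4.88 (29.5-fold). The third, an _x probe set that may cross-hybridise, rose by 1.87. None of the 3 passed in RT101 colonies, where changes were 0.29 to 0.34. The difference between the changes passed on all 3, at -1.79 (SE 0.22) on the first, -4.57 on the second and -1.58 on the third. In colonies RT101 was 3.59-fold, 24.8-fold and 3.16-fold lower on them in the same order.

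**Figure D4:**
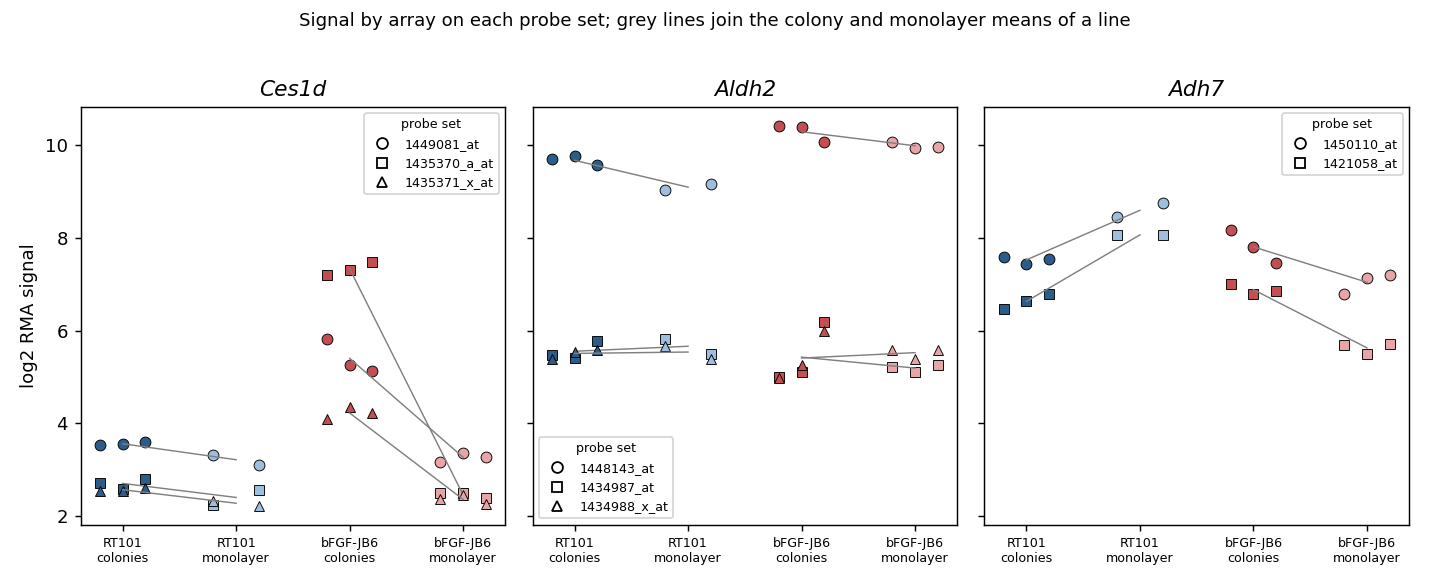
Log2 signal on each probe set of Ces1d, Aldh2 and Adh7 by array, with lines joining the colony and monolayer means of RT101 (left) and of bFGF-JB6 (right). The 3 Ces1d probe sets all lie above 4 in bFGF-JB6 colonies alone, the dim Aldh2 probe sets do not follow the bright one, and both Adh7 probe sets slope oppositely in the 2 kinds of cell.

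Ces1d, Ces1f and Ces1g of the chromosome 8 Ces1 run thus all rose in bFGF-JB6 colonies, while Ces1c and Ces1e of the same run stayed at the bottom. Ces1 enzymes are made by liver, fat and macrophages, so markers of these cells are given beside them. Hepatocyte markers averaged 4.15 to 4.30 on all 11 arrays, Alb, Fgb and Apob were at the bottom, and none of 8 passed in limma's test in any comparison, with 1 higher at an unadjusted p of 0.05 in RT101 in each state and none otherwise. Adipocyte markers Adipoq, Cidec, Lep and Pparg were at the bottom in all groups. Fabp4, a fatty acid carrier that macrophages also make, averaged 6.26 in RT101 colonies, 4.99 in RT101 monolayer, 9.02 in bFGF-JB6 colonies and 9.81 in bFGF-JB6 monolayer, and it rose by 1.27 (SE 0.17) in RT101 colonies and fell by 0.79 (SE 0.15) in bFGF-JB6 colonies. Lpl, the lipoprotein lipase, averaged 4.61 in RT101 colonies, 4.72 in RT101 monolayer, 6.75 in bFGF-JB6 colonies and 6.54 in bFGF-JB6 monolayer, and passed in neither colony comparison. The mean of the 7 adipocyte markers measured was 4.00 to 4.03 in RT101 colonies, 3.85 to 3.87 in RT101 monolayer, 4.58 to 4.83 in bFGF-JB6 colonies and 4.69 to 4.83 in bFGF-JB6 monolayer. The 8 macrophage and leukocyte markers averaged 4.21 to 4.31 in RT101 colonies, 4.20 to 4.21 in RT101 monolayer, 4.94 to 5.10 in bFGF-JB6 colonies and 4.53 to 4.64 in bFGF-JB6 monolayer. Of these 8, 2 rose in RT101 colonies and 3 in bFGF-JB6 colonies, 25% and 37.5% beside 32.4% and 29.4% of all genes. None fell, with 2 and 1 lower at an unadjusted p of 0.05. Between colonies 1 was higher and 3 lower in RT101, 50% beside 43.3%. Between monolayers 2 were higher and 2 lower, 50% beside 44.4%. Cd68 averaged 3.54 in RT101 colonies, 3.74 in RT101 monolayer, 8.31 in bFGF-JB6 colonies and 6.45 in bFGF-JB6 monolayer. It rose by 1.86 (SE 0.10) in bFGF-JB6 colonies, as did Csf1r by 0.92 (SE 0.11). Lyz2 rose by 0.62 (SE 0.12) in RT101 colonies and by 0.36 (SE 0.11) in bFGF-JB6 colonies. Cd14 rose by 0.33 (SE 0.09) in RT101 colonies and averaged 7.30 to 8.69 over the 4 groups. Ptprc, Adgre1 and Itgam, which define leukocytes and macrophages, were at the bottom in every group. Endothelial markers averaged 3.35 to 3.64 on all arrays, with Pecam1, Cdh5 and Tek at the bottom. Vwf, the von Willebrand factor gene, averaged 2.86 in RT101 colonies, 2.94 in RT101 monolayer, 3.85 in bFGF-JB6 colonies and 2.97 in bFGF-JB6 monolayer, a rise of 0.88 (SE 0.15, adjusted p = 0.000504) in bFGF-JB6 colonies. The part of these cells in the Ces1 results was not tested.

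Ces2g, an esterase of the Ces2 group, ran the other way. It read 5.94, 5.77 and 5.83 in RT101 colonies, against 6.61 and 6.78 in RT101 monolayer, and 5.08, 4.98 and 5.15 in bFGF-JB6 colonies, against 5.46, 5.26 and 5.41 in bFGF-JB6 monolayer. It fell by 0.85 in RT101 colonies (SE 0.10, 1.80-fold, adjusted p = 2.02e-05) and by 0.31 in bFGF-JB6 colonies (SE 0.09, adjusted p = 0.0195), the bFGF-JB6 call being lost without bFGF-JB6 monolayer replicate 1 or 3 or bFGF-JB6 colonies replicate 2 (adjusted p 0.0669 to 0.072). RT101 was higher by 0.78 in colonies (SE 0.09) and by 1.32 in monolayer (SE 0.10, 2.49-fold). Ces2e, at the bottom throughout, fell by 0.62 in RT101 colonies, a call lost without RT101 monolayer replicate 1 (adjusted p = 0.0814), and was 0.69 higher in RT101 monolayer than in bFGF-JB6 monolayer (SE 0.14).

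Genes of the pathways around these enzymes were counted in the same fit. Of 11 steroid dehydrogenases and reductases, 7 rose and none fell in RT101 colonies, none being lower at an unadjusted p of 0.05, and 6 rose and 1 fell in bFGF-JB6 colonies. That is 63.6% of the list in each, beside 32.4% of all genes in RT101 and 29.4% in bFGF-JB6. Hsd11b1, which regenerates active glucocorticoid, rose by 1.47 (SE 0.13) in RT101 and 0.96 (SE 0.12) in bFGF-JB6, and Hsd17b11 by 1.74 (SE 0.10) and 0.82 (SE 0.09). Both were lower in RT101: the RT101 minus bFGF-JB6 differences were -2.98 for Hsd11b1 and -2.14 for Hsd17b11 in colonies, and -3.48 and -3.06 in monolayer. The medians of the list were 0.65 in RT101 and 0.30 in bFGF-JB6, beside -0.01 and 0.03 for all genes.

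Of 16 targets and regulators of NRF2, the oxidant-sensing transcription factor that drives many aldo-keto reductases, 5 rose and 3 fell in RT101 colonies, and 8 rose and 1 fell in bFGF-JB6 colonies, 50% and 56.2% beside the same 32.4% and 29.4% of all genes. Nqo1, a quinone reductase, rose by 2.70 (SE 0.11) in RT101 and by 0.87 (SE 0.10) in bFGF-JB6. Slc7a11, the cystine transporter, fell by 1.63 (SE 0.17) in RT101 and rose by 1.80 (SE 0.15) in bFGF-JB6. In bFGF-JB6 colonies Hmox1 rose by 1.16 (SE 0.12) and Gclc, of glutathione synthesis, by 1.08 (SE 0.09); their RT101 changes of -0.31 and 0.01 did not pass. The medians of the list were 0.16 in RT101 and 0.25 in bFGF-JB6. In RT101 monolayer against bFGF-JB6 monolayer 6 of its genes were higher and 7 lower, 81.2% beside 44.4% of all genes. In RT101 colonies against bFGF-JB6 colonies 4 were higher and 8 lower, 75% beside 43.3% of all genes.

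The aryl hydrocarbon receptor, the ligand-activated factor through which Aldh3a1 and Cyp1 genes are induced by dioxins, changed in opposite directions in RT101 and bFGF-JB6 colonies. Ahr averaged 7.80 in RT101 colonies, against 5.77 in RT101 monolayer, and 6.82 in bFGF-JB6 colonies, against 7.72 in bFGF-JB6 monolayer, so it rose by 2.03 (SE 0.18) and fell by 0.90 (SE 0.16). Its targets Cyp1a1, Cyp1a2, Cyp1b1 and Ahrr were at the bottom in all groups, and Tiparp rose by 0.76 (SE 0.09) in RT101 colonies and by 0.25 (SE 0.08) in bFGF-JB6 colonies. Of the 7 genes 2 rose and none fell in RT101 colonies (none lower at an unadjusted p of 0.05), and 2 rose and 1 fell in bFGF-JB6 colonies, 28.6% and 42.9% beside 32.4% and 29.4% of all genes; the medians were 0.02 and 0.10. Between monolayers, the RT101 minus bFGF-JB6 difference was -1.95 for Ahr and -6.45 for Aldh3a1. Between colonies it was 0.98 for Ahr and -6.62 for Aldh3a1. Whether Ahr has a part in the Aldh3a1 levels was not tested.

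Of 18 retinoid pathway genes 5 rose and none fell in RT101 colonies (none lower at an unadjusted p of 0.05), and 2 rose and 1 fell in bFGF-JB6 colonies, 27.8% and 16.7% beside 32.4% and 29.4% of all genes. Rdh10, which makes retinaldehyde from retinol, rose by 2.26 (SE 0.11) in RT101 and its change of 0.24 in bFGF-JB6 did not pass. Dhrs3, which reduces retinaldehyde back, rose by 0.99 (SE 0.15) in RT101 and by 0.66 (SE 0.14) in bFGF-JB6, and Rxra, a retinoid receptor, by 0.66 (SE 0.13) and 1.02 (SE 0.12). Crabp2, a retinoic acid carrier, rose by 1.11 (SE 0.11) in RT101 colonies and its RT101 minus bFGF-JB6 difference was -2.04 in colonies and -3.18 in monolayer. The median of the list was 0.04 in RT101 colonies and 0 in bFGF-JB6 colonies.

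Of 9 prostaglandin enzymes 4 rose and 1 fell in RT101 colonies, and 1 rose and 2 fell in bFGF-JB6 colonies, 55.6% and 33.3% beside 32.4% and 29.4% of all genes. Ptges, which makes prostaglandin E2, rose by 1.97 (SE 0.19) in RT101 and fell by 0.85 (SE 0.17) in bFGF-JB6, and Ptgr1, a prostaglandin and alkenal reductase, rose by 1.57 (SE 0.08) and 0.31 (SE 0.07). Of 8 other short-chain dehydrogenases 4 rose and 2 fell in RT101 colonies, and 2 rose and 3 fell in bFGF-JB6 colonies, 75% and 62.5% of them. Dhrs1 rose by 0.87 (SE 0.11) in RT101 and fell by 1.10 (SE 0.10) in bFGF-JB6, and Dcxr, which reduces sugars and dicarbonyls, rose by 1.31 (SE 0.12) and fell by 0.45 (SE 0.10). Of 15 other ester hydrolases 3 rose and 1 fell in each colony comparison, 26.7% of them: Lipa, the lysosomal acid lipase, rose by 0.53 (SE 0.11) in RT101 and 1.02 (SE 0.10) in bFGF-JB6, and Pon2 fell by 1.05 (SE 0.13) and rose by 0.64 (SE 0.12). Of 6 folate enzymes 5 fell in RT101 colonies and 4 in bFGF-JB6 colonies and none rose at an adjusted or unadjusted p of 0.05, which is 83.3% and 66.7% of them. None of the 9 nuclear receptors of xenobiotic response passed in limma's test in any of the 5 comparisons, with 1 higher at an unadjusted p of 0.05 in bFGF-JB6 colonies and 1 in RT101 monolayer against bFGF-JB6 monolayer. Of 3 polyol pathway genes none passed in either colony comparison, with 1 higher at an unadjusted p of 0.05 in each. The list medians in RT101 and in bFGF-JB6 colonies were 0.14 and -0.08 for prostaglandin enzymes, 0.29 and -0.07 for short-chain dehydrogenases, -0.06 and 0.06 for ester hydrolases, -0.64 and -0.38 for folate enzymes, -0.01 and 0.10 for nuclear receptors and 0.10 and 0.12 for polyol genes.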

How the data were processed

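Biotin-labelled RNA of each sample was read on its own Affymetrix array. The authors summarised the probes with RMA, per the submitters' processing notes, and deposited log2 values for each probe set; settings and a genome build are not given in the sources used here. RMA makes no detection calls, weak signals give folds that are too small, and precision is set by how few arrays there are. No further scaling or filter was applied. Of 22690 probe sets 64 were controls, and 20380 named a single gene by the platform annotation. A gene's value is its brightest such probe set over all arrays (12393 genes).

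All 11 arrays were fitted together with limma 3.58.1 in R 4.3.3, with group as the only term and eBayes (7 residual and 6.12 prior degrees of freedom). The 5 comparisons were colonies against monolayer within RT101 and within bFGF-JB6, how far these changes differed, and RT101 against bFGF-JB6 in each growth state. Genes passed at 0.05 after Benjamini-Hochberg adjustment over 12393 genes (probe sets beyond the brightest: over all probe sets); SE is limma's moderated error of a log2 difference. Same-numbered RT101 and bFGF-JB6 colony arrays deviated together from their group means (correlations 0.11 to 0.32, 3 pairs), which rests on the data and not on the labels, so a fit of the colony arrays with the number as a block was added; in the other pairs of groups correlations ran from -0.25 to 0.17. The procedure was tested on simulated data with planted changes and independent noise. That test does not cover replicate arrays that depend on each other or the small folds at the bottom of the scale. Members and gene lists were chosen with earlier results of these data known. Full values were given for members called with a change of 2-fold or more, up to the 6 largest per direction and comparison; other members were given by their differences, and up to 4 called genes were named per list. The rule as written, with a digit straight after Akr1, finds no aldo-keto reductase and was read as Akr1 plus a subfamily letter. Alternatives were replicate blocks, other summaries of probe sets, filters, scalings, variance models, a 2-fold minimum and leaving out arrays. Promoter windows came from RefSeq (GRCm38.p6). Figures used matplotlib 3.10.9 and Python 3.11.15.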

Additional observations from a re-analysis of the deposited data

Results flagged for a closer look

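For 14 of the 45 genes the colony change itself differed between RT101 and bFGF-JB6 by limma's test of the difference (adjusted p at or below 0.05 over all genes, 3 colony and 2 monolayer arrays of RT101 and 3 and 3 of bFGF-JB6). Negative values mean a lower change in RT101. The aldo-keto reductase Akr1c14 had a difference of -2.76 (adjusted p = 1.01e-07), rising in both kinds of cell but more in bFGF-JB6, and Akr1b8 had 1.48 (4.13e-07), with opposite directions. Cbr2 had 1.87 (3.02e-07) and Ces1f 1.81 (6.82e-07), both rising in both but more in RT101; the RT101 monolayer signal of Ces1f was at the bottom of the scale. Adh7 had -1.83 (5.97e-05) with opposite directions on both probe sets, and Adh1 had -1.08 (0.00174).

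Among the carboxylesterases Ces1d had -1.79 (3.71e-05), and -4.57 on a second probe set, and Ces1g -1.37 (0.000148), with RT101 signals at or close to the bottom. Ces2e had -0.88 (0.00297), with all groups at the bottom, and Ces2g -0.54 (0.00879), a call lost without RT101 monolayer replicate 2 (adjusted p = 0.0554). Aldh9a1 had 0.68 (0.00216) on its brightest probe set and 0.31 on the second, which did not pass (adjusted p = 0.115 over all probe sets). Cbr4 had 0.68 (0.0139), lost without RT101 monolayer replicate 1 (adjusted p = 0.0551). Aldh4a1 had 0.51 (0.0368) and Aldh6a1 0.54 (0.0305), and each of these 2 calls was lost on leaving out any of 7 arrays (adjusted p 0.0598 to 0.12 and 0.0541 to 0.0872). The Aldh4a1 call was also lost without the 2 arrays with raised 3' Gapdh signal (adjusted p = 0.0578). With median centring the Aldh6a1 call was lost (adjusted p = 0.0523). No cause was tested for any of these differences.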

How the results depend on the processing

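Results were recomputed under 13 other settings, 1 of them (pairing the colony arrays) chosen after seeing the data, and with each of the 11 arrays left out in turn. Of 88 gene calls over the 5 comparisons, 68 held in every setting run and 20 were lost in at least 1, and none of the 45 genes' called values changed sign; all 40 calls of 2-fold or more held. With all probe sets tested separately, 14 of the 63 member probe sets rose in bFGF-JB6 colonies, where 9 of the 45 genes did. Of all 20380 probe sets, 6037 passed in RT101 colonies and 5474 in bFGF-JB6 colonies, where 4013 and 3642 of 12393 genes passed. For RT101 against bFGF-JB6, 8438 probe sets passed in monolayer and 8269 in colonies, where 5504 and 5372 genes passed. Probe sets outnumber genes, so these counts are not directly comparable. Testing only genes no dimmer than the median gene, 5 rose in bFGF-JB6 colonies, 2 had a lower change in RT101 than in bFGF-JB6, 3 were higher in RT101 monolayer, and 5 were higher and 8 lower in RT101 colonies than in bFGF-JB6, since members below the median were not tested.

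With a 2-fold minimum, by construction stricter, members higher and lower numbered 4 and 1 in RT101 colonies, 5 and 0 in bFGF-JB6 colonies, 3 and 5 for the difference between the changes, 3 and 8 in RT101 monolayer and 2 and 9 in RT101 colonies against bFGF-JB6; of all genes 717, 432, 968, 1518 and 1247 passed. The 4 members that fell in RT101 colonies became 7 with median centring, 7 with array weights and 7 without the 2 arrays with raised 3' Gapdh signal; the cause was not tested. Aldh2 lost all its calls, and Aldh7a1 its bFGF-JB6 colony call, when a gene's probe sets were averaged.

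Leaving out 1 array gave 9 to 11 members higher and 3 to 6 lower in RT101 colonies, and 8 to 10 and 3 to 6 in bFGF-JB6 colonies. For the difference it gave 4 to 7 and 6 to 8, the 4 without RT101 monolayer replicate 1. RT101 against bFGF-JB6 had 7 to 10 and 13 to 16 in monolayer, and 6 to 8 and 14 to 17 in colonies. Of all genes, 3050 to 4548 then passed in RT101 colonies (4013 with all arrays) and 2995 to 3833 in bFGF-JB6 colonies (3642). For the difference 2666 to 3664 passed (3430). Between RT101 and bFGF-JB6, 4607 to 5898 passed in monolayer (5504) and 4770 to 5558 in colonies (5372). With the title numbers as a replicate block, 11 members rose and 5 fell in RT101 colonies and 9 rose and 4 fell in bFGF-JB6 colonies; the monolayer calls of Aldh16a1 (adjusted p = 0.0752) and Aldh1a1 (0.0813) between RT101 and bFGF-JB6 were lost, and the RT101 colony changes of Aldh16a1 and Aldh1a2 gained. With the letters as a replicate block, 10 rose and 5 fell, and 10 rose and 4 fell; the monolayer call of Aldh16a1 was lost (0.052), and Cbr1 in bFGF-JB6 colonies and Aldh3a2 in RT101 colonies were gained. Members higher and lower then numbered 7 and 15 (title numbers) and 8 and 15 (letters) in RT101 monolayer against bFGF-JB6 monolayer, and 8 and 15 with either block in colonies. Of all genes, 3887 (title numbers) and 3912 (letters) then passed in RT101 colonies, and 3550 and 3686 in bFGF-JB6 colonies. Between RT101 and bFGF-JB6, 5391 and 5366 passed in monolayer and 5291 and 5420 in colonies, in the same order. With the colony arrays alone and the numbers as a replicate block, 7 were higher and 15 lower in RT101 colonies, Cbr4 alone being lost (0.0509); this changed no other call.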
